A study of Mus musculus with 30 samples.

Results

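Gria3, Xdh, Slc41a2, Lifr, Pdzd4 and Nrg1 are 6 of the 32285 genes in the count tables of 4 single-cell libraries of mouse spleen. They were chosen by their measured levels: their transcripts were higher in conventional dendritic cells (cDC) of Smc3-cKO than of Smc3-WT mice in these same libraries. Their values in cDC are therefore given as a description, without a test, and tests are kept for other cell classes and other genes. All 6 symbols were found in each library.

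The study compared mice labelled Smc3-WT and Smc3-cKO to ask what the cohesin subunit Smc3 does in dendritic cells. Splenocytes depleted of red blood cells were profiled in 2 libraries of each genotype with a kit that counts the 3′ ends of transcripts. An age of 6 to 8 weeks is given in the protocol text for the sorted cells, and not separately for these libraries. The labels name neither the Cre line nor the deleted part of Smc3, and do not tell if a genotype's libraries stem from different mice. The p-values between genotypes therefore set a difference only against the spread of the 2 libraries within each genotype, and that spread may be technical. Those between cell classes rest on the same libraries. The other 26 samples of the series were not analysed here.

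Cohesin is a ring-shaped complex that extrudes chromatin loops and thereby shapes contacts between enhancers and promoters. Conventional dendritic cells present antigen to T cells and comprise cDC1, which excel at cross-presentation, and cDC2, which mainly prime CD4 T cells, and both take on a mature state on activation. Plasmacytoid dendritic cells (pDC) are a separate lineage that secretes type I interferon and depends on the E protein Tcf4. The 6 genes belong to different pathways: Gria3 encodes a subunit of AMPA-type glutamate receptors, Xdh the enzyme that makes uric acid from hypoxanthine and xanthine, Slc41a2 a magnesium transporter, Lifr the receptor for leukaemia inhibitory factor, Nrg1 a growth factor that binds ErbB receptors, and Pdzd4 a protein with a PDZ domain.

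The genes lie on 5 chromosomes (build GRCm38.p6, which is mm10). Nrg1 (ENSMUSG00000062991) spans chr8:31807452-32891609, Slc41a2 (ENSMUSG00000034591) chr10:83230848-83338037, Lifr (ENSMUSG00000054263) chr15:7090610-7197489 and Xdh (ENSMUSG00000024066) chr17:73883895-73950397. Gria3 (ENSMUSG00000001986) spans chrX:41400819-41678601 and Pdzd4 (ENSMUSG00000002006) chrX:73793357-73825043, so these last 2 share a chromosome but are more than 500 kb apart.

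Promoters were searched for motifs of factors used by these lineages, and those of Lifr, which held matches, and of Pdzd4, which held none, are shown for comparison. Slc41a2, which is also highest in pDC, was searched but is not shown. The RefSeq table holds 4 windows for 3 of the genes, and each was read over the 250 bases before the start site. The searched motifs, on both strands, were the PU.1-type GAGGAAGT, the ETS-IRF composite element, the IRF element, and the E-boxes CACCTG and CAGCTG. Matches are in capitals. The Lifr windows precede 2 annotated start sites (chr15:7129322-7129571 and chr15:7140292-7140541, plus strand) and lie inside the annotated span of the gene, and of Pdzd4 the 176 bases beyond the annotated gene are shown (chrX:73825044-73825219, minus strand).
Lifr first start: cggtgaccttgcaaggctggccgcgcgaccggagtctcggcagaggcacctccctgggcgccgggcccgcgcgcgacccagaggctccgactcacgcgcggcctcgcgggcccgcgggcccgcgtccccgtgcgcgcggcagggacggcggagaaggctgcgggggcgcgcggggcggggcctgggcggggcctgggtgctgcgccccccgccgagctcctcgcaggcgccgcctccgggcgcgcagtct
Lifr second start: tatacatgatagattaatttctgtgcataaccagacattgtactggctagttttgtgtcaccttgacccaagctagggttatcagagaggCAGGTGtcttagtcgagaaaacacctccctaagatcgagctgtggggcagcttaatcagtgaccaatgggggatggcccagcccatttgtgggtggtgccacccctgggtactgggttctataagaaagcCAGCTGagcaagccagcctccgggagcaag
Pdzd4: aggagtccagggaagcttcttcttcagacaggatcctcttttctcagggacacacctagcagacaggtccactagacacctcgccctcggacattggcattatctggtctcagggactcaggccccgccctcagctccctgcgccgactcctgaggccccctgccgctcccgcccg
Only the second Lifr window held a match, with CACCTG, read there as its reverse complement CAGGTG, beginning 160 bases and CAGCTG beginning 30 bases upstream of the start. Over 32851 such windows of 27025 genes, CACCTG was present in 17.2% and CAGCTG in 13%, against 2.44% for GAGGAAGT, 2.30% for the ETS-IRF composite element and 2.98% for the IRF element. The first Lifr window, the Pdzd4 window and the Slc41a2 window (chr10:83337818-83338067, minus strand) held none of the 5 motifs, which says only that these letters are not in these windows. A match is a description of letters and not a bound site. Gria3, Xdh and Nrg1 are not shown.

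The libraries held 40367056 to 51299056 UMIs (unique molecular identifiers, 1 per captured transcript) in 9074 to 16096 barcodes, and 6850 to 13149 cells per library were kept. Cells were clustered without the 6 genes, and clusters were named from marker lists as "like" a cell type. There were 38, 58, 33 and 28 cDC1-like cells and 89, 168, 75 and 176 cDC2-like cells in Smc3-WT replicates 1 and 2 and Smc3-cKO replicates 1 and 2, the order used for 4 values below. Mature cDC-like cells numbered 49, 33, 5 and 10, under the minimum of 20 cells in every library for a test, and pDC-like cells 41, 79, 98 and 48. Smc3 itself checks the labels only weakly, since 3′ counts may lie outside the deleted part: its level was 86.9, 92.5, 89.9 and 98.1 CPM (UMIs of a gene scaled to 1000000 UMIs of that class in that library) in cDC2-like cells and 134.5, 101.4, 108.5 and 143.7 CPM in pDC-like cells, with no difference past the threshold in any class (edgeR quasi-likelihood test, adjusted p = 0.982 in cDC2-like cells, log2 difference 0.05, SE 0.27).

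In cDC2-like cells the genes other than Nrg1 stood higher in both Smc3-cKO libraries than in both Smc3-WT libraries. Xdh differed most, and Gria3, Lifr, Slc41a2 and Pdzd4 less. In cDC1-like cells Gria3 alone was separated in this way among the 3 genes with enough counts for a fit. In mature cDC-like cells Gria3 was higher in Smc3-cKO, while Slc41a2, Lifr and Pdzd4 had UMIs in Smc3-WT libraries alone. Nrg1 was detected in a handful of Smc3-cKO cells and in no Smc3-WT cDC-like cell, and in cDC2-like cells it had 1 UMI in all. The description "raised in cDC" thus holds for 5 of the 6 genes over all cDC2-like cells, and not for every gene in the other cDC classes or within each cDC2-like cluster.

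**Figure D1:**
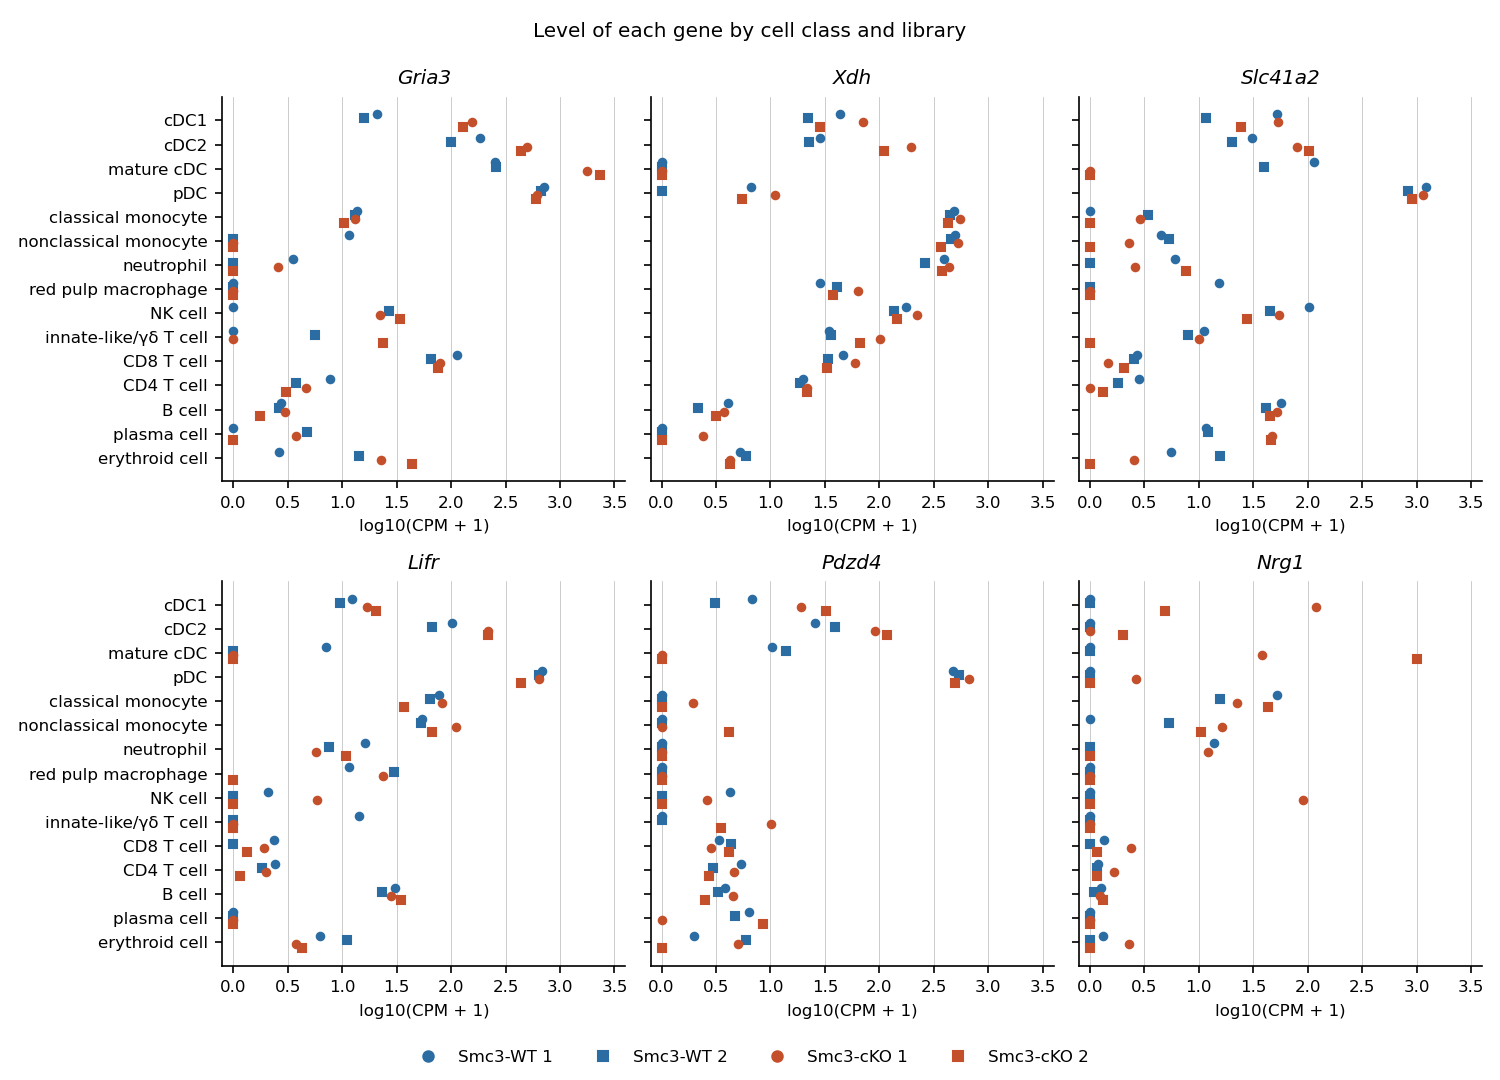
Level of each gene, as log10(CPM + 1), in 15 cell classes (rows); each point is 1 library, blue for Smc3-WT and red for Smc3-cKO, circles for replicate 1 and squares for replicate 2. Gria3, Slc41a2, Lifr and Pdzd4 peak in pDC-like cells outside cDC and Xdh in monocytes, and red lies to the right of blue in cDC2-like cells for these 5 genes.

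Among the receptors, Gria3 stood at 184, 99.3, 495 and 435 CPM in cDC2-like cells. The 2 Smc3-cKO libraries lay more than 2-fold above the higher Smc3-WT library, and the fitted difference was 1.73 on the log2 scale (SE 0.34, 2 libraries per group). At least 1 Gria3 UMI was found in 15.7% and 12.5% of the cells in the Smc3-WT libraries, and in 44.0% and 33.5% in the Smc3-cKO libraries. The exact Clopper-Pearson 95% intervals of these 4 shares, which cover counting error within a library only, were 8.88% to 24.98%, 7.91% to 18.5%, 32.5% to 55.9% and 26.6% to 41.0%. In B cell-like cells, which gave almost no Gria3, the share was 0.212% to 0.555% at median depths of 2523.5 to 4126 UMIs per cell.

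Gria3 UMIs were unevenly spread over cells. Among cDC2-like cells of Smc3-cKO replicate 2, 430 UMIs came from 59 cells and 44 of them from 1 cell. In cDC1-like cells Gria3 stood at 19.97, 14.8, 153 and 129 CPM, from 7, 7, 68 and 33 UMIs, with a fitted difference of 2.98 (SE 0.44, log2). That difference rested on few cells: the positive cells numbered 2, 2, 6 and 6, and 1 cell gave 28 of the 68 and 1 cell 25 of the 33 UMIs. In mature cDC-like cells Gria3 stood at 250, 259, 1781 and 2310 CPM, from 14, 12, 4 and 7 positive cells, with a fitted difference of 2.93 (SE 0.45, log2).

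Lifr, which signals together with the shared receptor chain Il6st, stood at 102, 65.3, 218 and 215 CPM in cDC2-like cells, 1.39 higher on the log2 scale in Smc3-cKO (SE 0.28). Lifr was detected in 19.1%, 16.1%, 42.7% and 38.6% of cells, with counting intervals of 11.5% to 28.8%, 10.9% to 22.5%, 31.3% to 54.6% and 31.4% to 46.3%, against 0.0489% to 0.407% of CD4 T cell-like cells, whose median depths were 2713 to 4154 UMIs. In cDC1-like cells there were 4, 4, 7 and 5 Lifr UMIs, and in mature cDC-like cells 2 UMIs in 1 library, so no difference could be read there.

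Xdh, the purine enzyme, stood at 27.3, 21.8, 195 and 109 CPM in cDC2-like cells. The Smc3-cKO libraries stood apart from each other by about as much as the second stood from Smc3-WT, and the fitted difference was 2.61 (SE 0.40, log2). Positive cells made up 7.87%, 7.74%, 40% and 37.5%, with counting intervals of 3.22% to 15.5%, 4.18% to 12.9%, 28.9% to 52.0% and 30.3% to 45.1%. In B cell-like cells 0.318% to 1.06% were positive. Xdh in cDC1-like cells stood at 42.8, 21.2, 69.8 and 27.3 CPM, where the genotypes overlap (log2 difference 0.66, SE 0.59, and -0.22 without Smc3-cKO replicate 1), and it had 0 UMIs in mature cDC-like cells of all 4 libraries.

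Slc41a2, the magnesium transporter, stood at 29.8, 19.0, 79.2 and 101 CPM in cDC2-like cells, from 12, 14, 37 and 100 UMIs (log2 difference 1.93, SE 0.37). It was found in 5.62%, 5.95%, 22.7% and 21.6% of these cells and in 0% to 0.523% of CD4 T cell-like cells. In cDC1-like cells it stood at 51.3, 10.6, 51.8 and 23.4 CPM and the genotypes overlap (log2 difference 0.38, SE 0.73, and -0.39 without Smc3-WT replicate 2 or -0.37 without Smc3-cKO replicate 1). In mature cDC-like cells Slc41a2 stood at 114 and 38.9 CPM in the Smc3-WT libraries and had 0 UMIs in the 5 and 10 Smc3-cKO cells. Over all cDC-like cells it stood at 62.2, 18.4, 64.0 and 81.2 CPM, so the first Smc3-WT library lay next to the Smc3-cKO libraries, and after TMM scaling (trimmed mean of M-values, a correction for library composition) the groups overlap.

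Pdzd4 stood at 24.8, 38.1, 89.9 and 115 CPM in cDC2-like cells (log2 difference 1.64, SE 0.35), from 10, 28, 42 and 114 UMIs. Its positive cells made up 7.87%, 11.3%, 24.0% and 34.1%, against 0.371% to 1.16% in B cell-like cells. The counting intervals of the Pdzd4 shares were 3.22% to 15.5%, 6.95% to 17.1%, 14.9% to 35.3% and 27.1% to 41.6%. In cDC1-like cells Pdzd4 had 2, 1, 8 and 8 UMIs.

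Nrg1, the only secreted ligand of the 6, had 0 UMIs in the 176 and 259 Smc3-WT cDC-like cells, which allows a level of up to 2.79 and 2.20 CPM (3 counts) and a share of cells with a UMI of up to 1.70% and 1.16%, which does not limit the share of cells that express the gene. Smc3-cKO cDC-like cells gave 53 and 63 Nrg1 UMIs, or 56.5 and 48.3 CPM, from 4 of 113 and 4 of 214 cells. Single cells carried most of them: 1 cDC1-like cell of Smc3-cKO replicate 1 held 46 UMIs and 1 mature cDC-like cell of Smc3-cKO replicate 2 held 48. In cDC2-like cells there was 1 Nrg1 UMI in all, so the Nrg1 value is a statement about 8 cells.

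**Figure D2:**
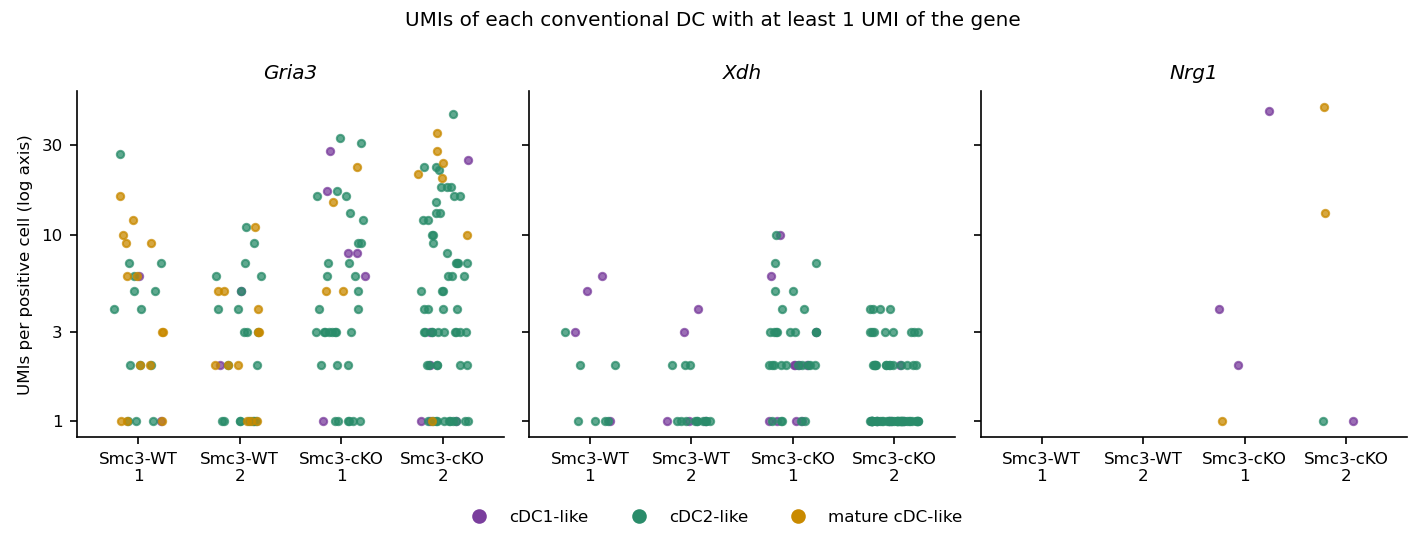
UMIs of Gria3, Xdh and Nrg1 in each cDC-like cell with at least 1 UMI of that gene (log axis), by library; purple is cDC1-like, green cDC2-like and ochre mature cDC-like. Gria3 reaches 44 UMIs in 1 cell while Xdh stays at 10 or below, and the Nrg1 UMIs come from 8 Smc3-cKO cells, 2 of which hold 46 and 48.

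Of the 6 genes, 5 passed the filter on low counts in cDC2-like cells, and both Smc3-cKO libraries were above both Smc3-WT libraries for each of them. Among all 7393 genes fitted there, 20% had that order, and nothing is read from the count since the genes were chosen on this contrast. In cDC1-like cells 1 of 3 fitted genes had that order, beside 15% of all genes, and over all cDC-like cells 5 of 6 had it, beside 18.1%. Of the 7393 genes in cDC2-like cells, 0.703% passed the test, and 0.0676% passed as higher in Smc3-cKO.

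**Figure D3:**
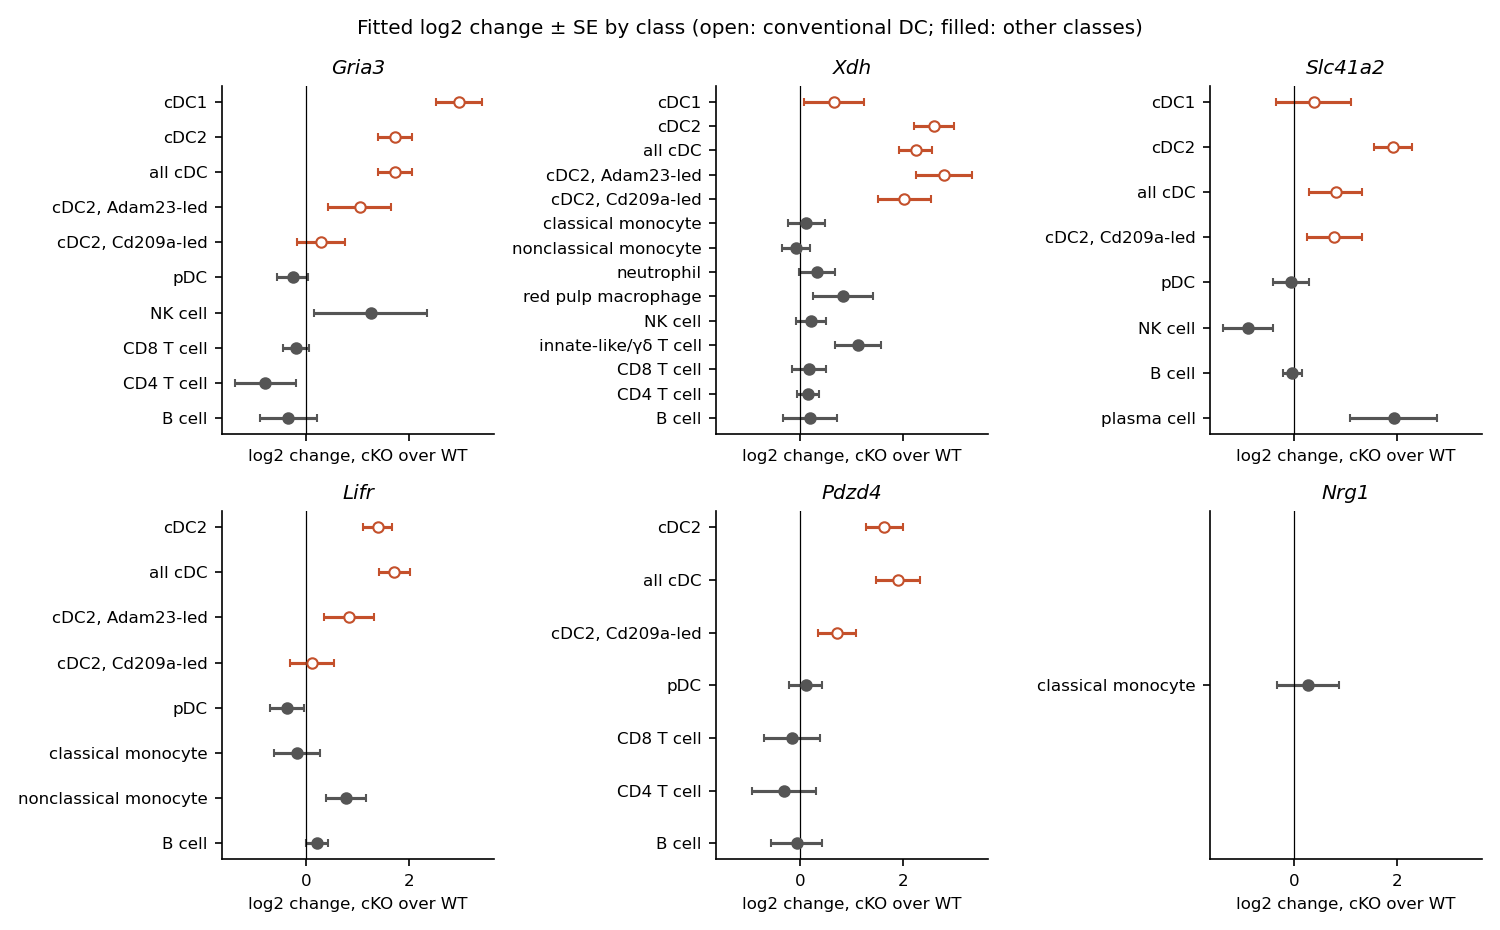
Fitted log2 difference between Smc3-cKO and Smc3-WT with its SE, for each gene in each class where it could be fitted, with 2 fits left out. Left out are Gria3 in mature cDC-like cells (2.93) and Nrg1 in all cDC-like cells (8.89, SE 0.84, from 0 UMIs in Smc3-WT). Open red points are cDC classes and cDC2-like clusters, which were used to choose the genes, and filled grey points are other classes. The open points of all cDC2-like cells lie between 1.39 and 2.61, and those of the cDC2-like clusters between 0.11 and 2.81. The grey points lie between -0.90 and 1.94.

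Depth differed between libraries, with medians of 4056, 4629, 6177 and 5340.5 UMIs per cDC2-like cell, so shares were recomputed after thinning each cell to 1000 UMIs, which left out 0, 12, 0 and 2 shallower cells. The order held for each of the 5 genes. How cDC2 cells are defined mattered more. With 39, 136, 47 and 165 cells gated one by one on markers, Lifr stood at 144, 35.0, 102 and 71.2 CPM and Xdh at 154, 63.4, 173 and 144 CPM, and Smc3-WT replicate 1 then lay among or above the Smc3-cKO libraries (log2 differences 0.15 and 0.67).

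After thinning, Gria3 was found in 10.1%, 7.05%, 28.0% and 20.1% of cells, Xdh in 2.25%, 1.92%, 18.7% and 9.77%, and Lifr in 5.62%, 4.49%, 14.7% and 12.1%. The shares are lower than in whole cells, as fewer UMIs are drawn, and both Smc3-cKO shares remain above both Smc3-WT shares. Slc41a2 was found in 2.25%, 2.56%, 8.00% and 6.32%, and Pdzd4 in 1.12%, 2.56%, 5.33% and 8.05%.

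The cDC2-like cells fell into 2 clusters, and a different one held most of them in each genotype. One, led by Adgrl3, Adam23 and Dscam, held 76, 130, 26 and 60 cells. The other, led by Cd209a, Cyp7b1 and Pid1, held 13, 38, 49 and 116 cells, and Gria3, although left out of the clustering, was among its 10 leading genes. Its cDC2 markers were mixed: Cd209a stood at 375, 544, 732 and 997 CPM against 64.5, 97.4, 70.4 and 94.9 CPM in the first cluster. Clec4a4, another listed cDC2 marker, had 0, 0, 1 and 5 UMIs against 28, 69, 6 and 23. It also carried pDC markers, given below, so its cDC2-like name is uncertain. Adam23 itself was at 2575, 2054, 148 and 393 CPM within the first cluster, so cells could be assigned through genes that differ by genotype, and cluster sizes are given only as denominators.

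Within the clusters the genes divide, and 16.5% of all genes in the Adam23-led and 16.7% in the Cd209a-led cluster had both Smc3-cKO libraries above both Smc3-WT libraries. By level, Gria3, Lifr, Slc41a2 and Pdzd4 were mostly a feature of the Cd209a-led cluster in both genotypes. Gria3 stood there at 816, 284, 643 and 598 CPM against 70.3, 24.8, 155 and 50.8 CPM in the other cluster. Within the Cd209a-led cluster the genotypes overlap for Gria3 (log2 difference 0.29, SE 0.47) and for Lifr, at 440, 156, 280 and 285 CPM (0.11, SE 0.43). They also overlap there for Slc41a2, at 163, 37.9, 111 and 141 CPM (0.78, SE 0.53). In Gria3, Lifr and Slc41a2 the difference over all cDC2-like cells was larger than the one within this cluster. The same held for Pdzd4 (log2 difference 1.64 against 0.72) and for Xdh (2.61 against 2.03).

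For Xdh alone among the 5, in contrast, both Smc3-cKO libraries were above both Smc3-WT libraries in each cluster. It stood at 16.3, 42.6, 188 and 115 CPM in the Cd209a-led cluster (log2 difference 2.03, SE 0.52) and at 29.3, 13.4, 211 and 94.9 CPM in the Adam23-led one (2.81, SE 0.54). Pdzd4 kept the order within the Cd209a-led cluster at a smaller size, with 81.5, 89.9, 129 and 159 CPM (0.72, SE 0.37), and had 5, 9, 0 and 4 UMIs in the Adam23-led cluster, where Slc41a2 had 2, 6, 1 and 2. Lifr in the Adam23-led cluster stood at 41.0, 28.6, 77.5 and 50.8 CPM (0.83, SE 0.49).

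**Figure D4:**
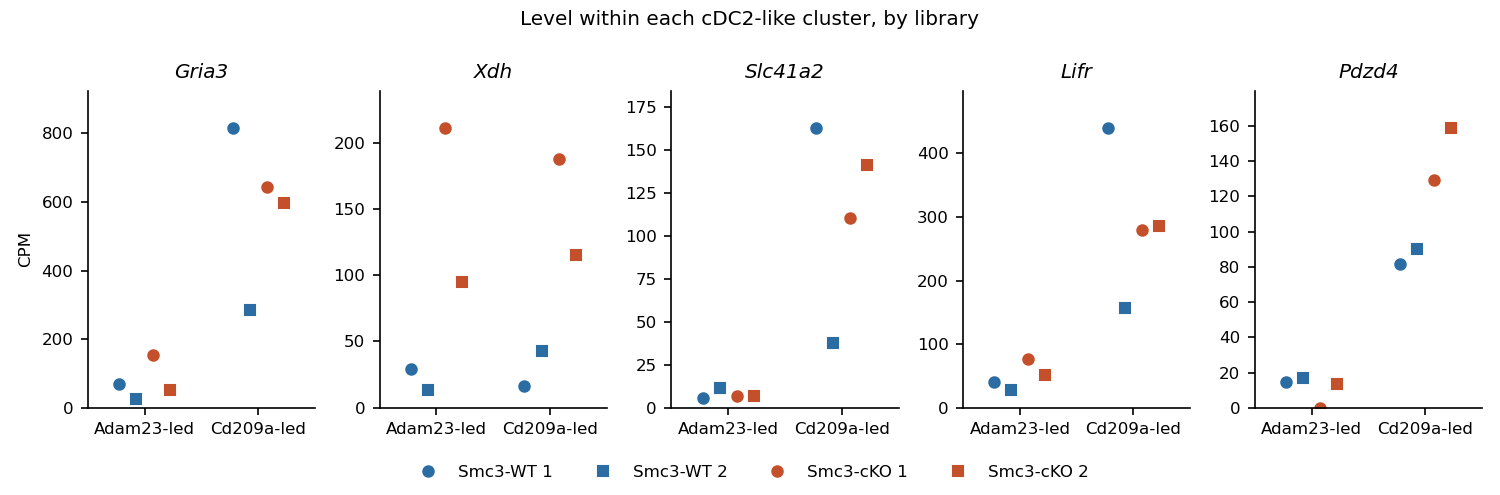
CPM of 5 genes in the 2 cDC2-like clusters, with 1 point per library (blue Smc3-WT, red Smc3-cKO; circles replicate 1, squares replicate 2); each panel has its own axis from 0. Only Xdh has both red points above both blue points in both clusters, while Gria3, Slc41a2, Lifr and Pdzd4 separate the clusters more than the genotypes.

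Cells were also split by a single transcript. In cDC2-like cells with at least 1 UMI of Cd209a, a C-type lectin of cDC2, Xdh stood at 47.9, 32.4, 203 and 109 CPM and in those without at 20.1, 14.1, 181 and 109 CPM. Gria3 stood at 422, 152, 623 and 565 CPM with Cd209a and at 101, 61.0, 274 and 151 CPM without. Slc41a2 was at 95.8, 19.4, 102 and 125 CPM with Cd209a, where Smc3-WT replicate 1 lies next to the Smc3-cKO libraries.

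Levels of pDC markers are set beside these genes. All 14 listed pDC markers were found, and their summed level in cDC2-like cells was 1808, 1677, 3625 and 4330 CPM, against 19224.5 to 24268 CPM in pDC-like cells. The 13 listed cDC2 markers summed to 2094, 2129, 2565 and 3003 CPM in cDC2-like cells, below the pDC sum in both Smc3-cKO libraries. The 2 lists differ in length and genes. The pDC markers at 0 in cDC2-like cells numbered 4, 1, 1 and 1, and Klk1 was among them in every library. Of 8 such markers tested in cDC2-like cells, 1 passed as higher in Smc3-cKO by edgeR's test with Benjamini-Hochberg adjustment over all genes. It was Siglech, a lectin of pDC, at 49.7, 36.7, 165 and 141 CPM (log2 difference 1.82, SE 0.30, adjusted p = 0.031 with edgeR, and 0.051 with DESeq2). Siglech was named because it was already known to change the same way in these data, so its p is no independent support. Of the 8, 6 had an unadjusted p below 0.05 with edgeR, beside 9.21% of all genes tested. Both Smc3-cKO libraries were above both Smc3-WT libraries for 7 of them, beside 20% of all genes. The median log2 difference of the 8 was 1.13, beside 0.02 for all genes tested.

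Within the Cd209a-led cluster the pDC marker sum was 5790, 3971, 4777 and 5597 CPM, where the genotypes overlap, and within the other it was 1093, 752, 986 and 1352 CPM. Siglech in the Cd209a-led cluster stood at 114, 99.4, 237 and 193 CPM, where they do not. Ccr9 had the same order there (48.9, 42.6, 89.2 and 120 CPM), as did Cox6a2 and Paqr5 at few UMIs. Ly6d had the reverse order (97.9, 28.4, 6.15 and 5.77 CPM), and the other listed markers overlapped or were at 0. Tcf4 (1666 to 2845 CPM) and Runx2 (1169 to 2218 CPM), which overlapped, made up most of the sum. The part that pDC transcripts play in the levels of Gria3, Lifr, Slc41a2 and Pdzd4 in cDC2-like cells was not tested. In pDC-like cells themselves Xdh stood at 5.60, 0, 10.01 and 4.49 CPM, below every cDC2-like library. The 9 listed markers of classical monocytes, where Xdh is high, summed to 748, 1613, 2248 and 2106 CPM in cDC2-like cells. In classical monocyte-like cells they summed to 6596 to 10016 CPM. Those at 0 in cDC2-like cells numbered 1, 0, 2 and 1, with Vcan at 0 in 3 of the 4 libraries. The part of the monocyte markers in the Xdh level was not tested.

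The genes were also counted together in single cells. At least 2 of the 6 were detected in 7.87%, 11.9%, 48.0% and 45.5% of cDC2-like cells. These cells, 7, 20, 36 and 80 in number, held a median of 5, 5, 5.5 and 5 detected pDC markers, against 2.5, 2, 2.5 and 2 in cells with none of the 6. Their median depth was 3862, 5651, 6423 and 6483 UMIs against 4037.5, 4209, 5496 and 4967. UMIs of both Siglech and Ccr9, a strict rule at this depth, were found in 2, 2, 9 and 20 of them. That count was not made for cells with none of the 6. The part of depth and pDC markers in these shares was not tested. At least 3 were detected in 4.49%, 5.36%, 26.7% and 29.0%. In pDC-like cells at least 2 were found in 81.0% to 100% of cells of each library.

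Outside cDC the genes fall into 3 patterns. Gria3, Slc41a2, Lifr and Pdzd4 were highest in pDC-like cells, Xdh in monocytes and neutrophils, and Nrg1 in classical monocytes at a low level. Each class was tested against the mean of the other non-cDC classes with edgeR's quasi-likelihood test and the library as a block. Of 9540 genes, 20.3% were higher in pDC-like cells by this test and 13.4% lower, and 32.2% were higher in CD8 T cell-like cells, so such calls are common.

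In pDC-like cells Slc41a2 stood at 1210, 829, 1146 and 911 CPM, 18.0 times the mean of the next class, NK cell-like cells at 56.8 CPM ± 32.5 (SD, n = 4 libraries; adjusted p = 2.6e-34 with edgeR). Pdzd4 stood at 476, 534, 667 and 494 CPM in pDC-like cells, and no other class outside cDC had a mean above 4.14 CPM. It passed the filter on low counts through pDC-like cells alone. Its class test was thus fixed in advance, and only its levels are given. The libraries of pDC-like cells do not overlap those of the next class for either gene. For Slc41a2, NK cell-like cells, B cell-like cells (48.0 CPM) and plasma cell-like cells (28.2 CPM) follow, and these neighbours in the order overlap.

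Gria3 stood at 706, 665, 611 and 602 CPM in pDC-like cells and next at 82.5 CPM ± 20.1 (SD, n = 4 libraries) in CD8 T cell-like cells, 7.82-fold lower (adjusted p = 1.1e-26 for pDC-like and 1.6e-16 for CD8 T cell-like cells with edgeR). NK cell-like cells followed at 19.98 CPM and red pulp macrophage-like cells had 0 UMIs in all 4 libraries. Lifr stood at 678, 644, 644 and 440 CPM in pDC-like cells. It was next highest in nonclassical and classical monocyte-like cells, at 70.1 and 64.6 CPM, which overlap each other but not pDC-like cells (adjusted p = 2.5e-28 for pDC-like cells with edgeR).

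Xdh stood at 485, 443, 554 and 425 CPM in classical monocyte-like cells, and 28.8% of all genes were higher in that class by the same test. Nonclassical monocyte-like cells, at 461 CPM ± 70.2 (SD, n = 4 libraries), and neutrophil-like cells, at 365 CPM ± 73.0 (SD, n = 4 libraries), overlap them in their libraries. NK cell-like cells came next at 169 CPM, below all 3. Xdh was lower in pDC-like cells than in the mean of other classes (log2 difference -3.09, SE 0.54, adjusted p = 8.4e-06 with edgeR). The 109 and 195 CPM of Smc3-cKO cDC2-like cells thus lie below every monocyte library, and the Smc3-WT values of 27.3 and 21.8 CPM lie just above the 17.7 to 20.8 CPM of CD4 T cell-like cells.

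Nrg1 in classical monocyte-like cells stood at 51.0, 14.7, 21.4 and 41.9 CPM, from 8, 6, 23 and 45 UMIs in 5, 4, 14 and 29 cells. Apart from these and 1 NK cell-like library, no sum outside cDC exceeded 15.4 CPM. Nrg1 thus passed the filter on low counts through classes that the test then called. These calls are therefore no support, and no p is given. The test called it in classical monocyte-like cells, as it did 28.8% of all genes. It was also called in nonclassical monocyte-like and neutrophil-like cells, from 16 and 12 UMIs over the 4 libraries, beside 24% and 28.9% of all genes. It was called in NK cell-like cells too, as were 19.7% of all genes, where the UMIs came from Smc3-cKO replicate 1 alone, 55 of them in 1 cell, and the other 3 libraries had 0.

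Between genotypes none of the 6 genes passed the test in a class outside cDC. Of 27 gene and class pairs tested over 11 classes, 0 passed with edgeR after Benjamini-Hochberg adjustment over all genes of the class (lowest adjusted p = 0.999), 2 had an unadjusted p below 0.05 (2.31% of all pairs did), and DESeq2 called 0. Over all 80059 gene and class pairs in these classes, 0.0125% passed. Both Smc3-cKO libraries were above both Smc3-WT libraries in 4 of the 27 pairs and below in 2, beside 12.5% and 13.5% of all pairs.

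The 2 pairs under the unadjusted threshold were Xdh in innate-like or gamma delta T cells and Slc41a2 in plasma cells. Xdh stood at 33.5, 35.0, 99.4 and 65.5 CPM in the innate-like or gamma delta T cell-like cells (log2 difference 1.12, SE 0.45, and 0.17 with stricter cell filters). Slc41a2 stood at 10.7, 11.1, 46.0 and 45.0 CPM in plasma cell-like cells (1.94, SE 0.85). Neither passed after adjustment.

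In pDC-like cells, where 4 of the genes are highest, the log2 differences were -0.27 (SE 0.30) for Gria3, -0.37 (SE 0.33) for Lifr, 0.11 (SE 0.32) for Pdzd4 and -0.07 (SE 0.35) for Slc41a2. Xdh differed by 0.11 (SE 0.36) in classical monocyte-like cells, Nrg1 by 0.27 (SE 0.61, and 1.87 at Leiden resolution 2) there, and Gria3 by -0.21 (SE 0.25) in CD8 T cell-like cells. Whether these differences depart from those in cDC2-like cells was not tested, since the cDC values chose the genes.

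Genes next to the 6 were examined in cDC because they took no part in the choice. Of 141 annotated genes within 500 kb, 70 were in the count tables, and 34, 37 and 40 could be tested in cDC1-like, cDC2-like and all cDC-like cells. None of them passed in any of the 3 (edgeR, Benjamini-Hochberg adjustment over all genes), beside 0.703% of all genes in cDC2-like cells and 0 of all genes in the other 2. Unadjusted p-values below 0.05 numbered 3, 2 and 2, beside 3.99%, 9.21% and 9.15% of all genes tested in these classes, and DESeq2 called none. The median log2 difference of the 37 in cDC2-like cells was 0.01, with a range of -1.67 to 0.87, beside 0.02 for all genes.

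The nearest tested genes illustrate this in cDC2-like cells. Thoc2, an mRNA export factor 116.4 kb from Gria3, differed by -0.18 (SE 0.25). Slc41a2 lies between Chst11, a chondroitin sulfotransferase gene 34.9 kb away (-1.37, SE 0.46, adjusted p = 0.330 with edgeR), and D10Wsu102e, 22.2 kb away on the other side (-0.37, SE 0.53). Pdzd4 lies between Ssr4, a translocon subunit gene 2.5 kb away (0.43, SE 0.61), and L1cam, an adhesion molecule gene 28.7 kb away (0.87, SE 0.43). For Xdh, Lifr and Nrg1 the nearest tested genes were more than 200 kb off: Memo1 (0.01, SE 0.38), the mTORC2 subunit gene Rictor (0.29, SE 0.27) and the helicase gene Wrn (-0.35, SE 0.29). Leaving out Smc3-WT replicate 2 moved Ssr4 to 2.73 and L1cam to 1.60. The lowest neighbour, Gm2245, 436.3 kb from Lifr, stood at -1.67 (SE 0.45) with all libraries and at -2.09 without that one.

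**Figure D5:**
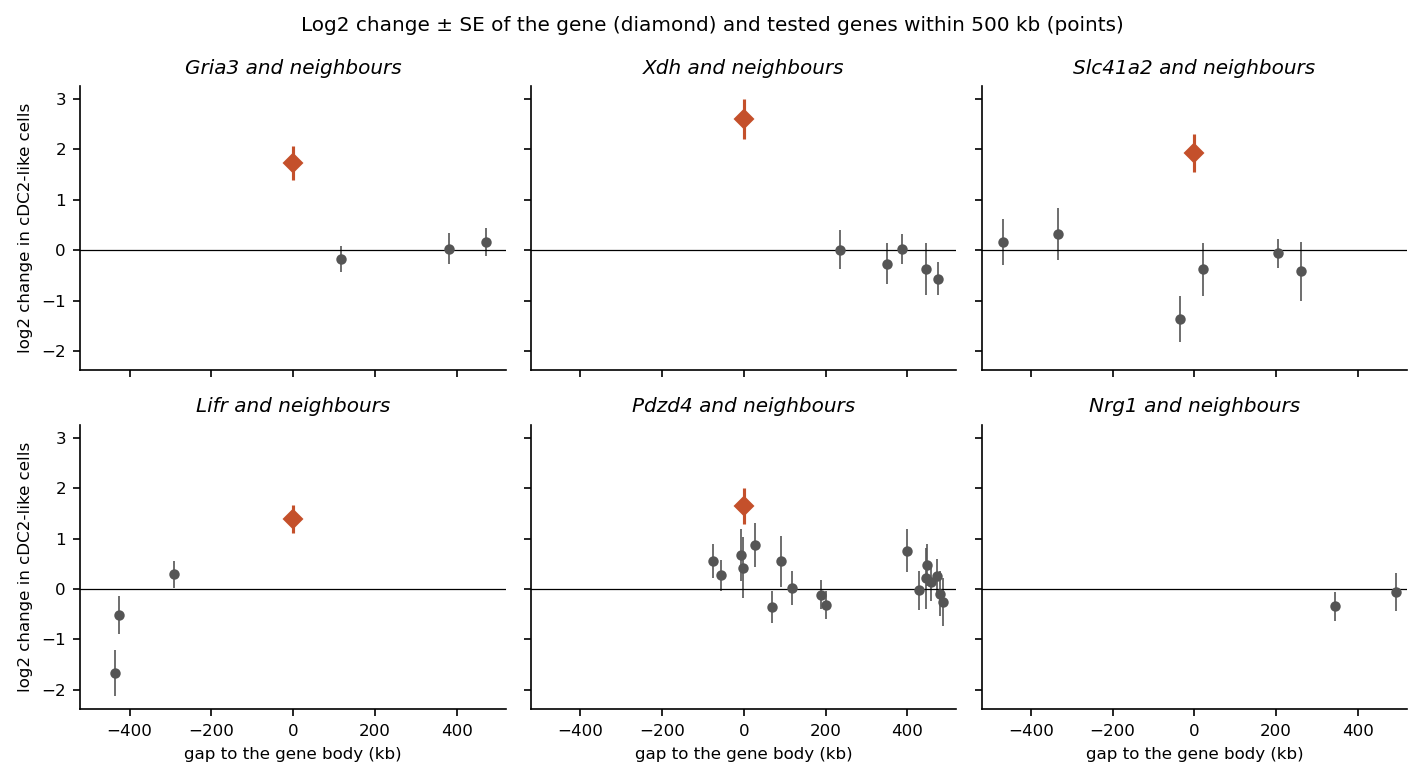
Log2 difference between Smc3-cKO and Smc3-WT in cDC2-like cells, with its SE, against the distance in kb from the gene body, for the tested genes within 500 kb (grey points) and for the gene itself (red diamond, absent for Nrg1, which could not be fitted). The neighbours lie between -1.67 and 0.87, and each diamond lies above them.

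Genes of the pathways that the 6 belong to were tested as lists of 23 to 28 symbols each. In cDC1-like, cDC2-like and all cDC-like cells 0 genes of these lists passed with edgeR, and in 631 gene and class pairs outside cDC 0 passed, with 11 at an unadjusted p below 0.05, beside 2.31% of all pairs. Of all genes in cDC2-like cells 9.21% had such a p, the share to set beside the counts of the lists below. The LIF and IL-6 signalling list had 13 of 28 genes tested in cDC2-like cells, with 2 at an unadjusted p below 0.05 and a median log2 difference of 0.18. In all cDC-like cells its most abundant genes were Jak2, a kinase of the receptor chains, and the IL-6 receptor gene Il6ra (log2 difference 0.47, SE 0.28). Jak2 had means of 839 and 459 CPM in Smc3-WT and Smc3-cKO (log2 difference -0.87, SE 0.34, adjusted p = 0.505 with edgeR). Il6st, the partner chain of Lifr, differed by -0.30 (SE 0.28) in cDC2-like cells.

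The purine breakdown and salvage list had 11 of 26 genes tested in cDC2-like cells, with 1 at an unadjusted p below 0.05 and a median of 0.13. In all cDC-like cells the nucleotide hydrolase gene Samhd1 differed by -0.11 (SE 0.30), and Gphn, whose product takes part in making the molybdenum cofactor that Xdh needs, by -0.57 (SE 0.34). The magnesium transport list had 12 of 23 tested, none at an unadjusted p below 0.05, with a median of -0.08. Its most abundant genes in all cDC-like cells were the phosphatase gene Ptp4a2 (-0.07, SE 0.30) and Magt1 (0.32, SE 0.25).

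The neuregulin and ErbB list had 9 of 25 tested in cDC2-like cells, 2 of them at an unadjusted p below 0.05, and a median of -0.16. In all cDC-like cells the adaptor gene Grb2 differed by -0.22 (SE 0.29) and Erbin by 0.04 (SE 0.27). The PDZ scaffold list had 8 of 26 tested, 3 of them at an unadjusted p below 0.05, and a median of -0.54, with Dlg1 at -0.50 (SE 0.27) and Dlg2 at 1.12 (SE 0.48, adjusted p = 0.543 with edgeR) in all cDC-like cells. The ionotropic glutamate receptor list had only 2 of 26 genes tested in cDC2-like cells, and its most abundant genes were Dlg1, which it shares with the PDZ list, and Cnih4 (0.57, SE 0.33 in all cDC-like cells). The median over all genes was 0.02 in cDC2-like cells.

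The genes most like each of the 6 were ranked by Pearson correlation of log2(CPM + 5) over 52 sums, 4 libraries in each of 13 classes, among 9083 genes. The points share libraries and depth, so the correlations are descriptions without p-values. Pdzd4 was most like Ptprf (r = 0.96), Siglech (0.95) and Notch3 (0.94). Slc41a2 was most like Scimp (0.86), Eya1 (0.85) and Carmil1 (0.85), and Lifr was most like Sh2b2 (0.88), Gm5086 (0.88) and Pltp (0.87).

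Gria3 was most like Klf8 (r = 0.85), then Pdzd4 (0.83) and Plxdc2 (0.82). Xdh was most like Ptpn12 (0.89), Myo1f (0.88) and Tnfrsf1a (0.88). Nrg1 was most like F10 (0.68), Plcb1 (0.64) and Itga5 (0.61), over sums in which Nrg1 is often at 0. Among the 6 themselves, Slc41a2 and Pdzd4 had r = 0.82 and Lifr and Pdzd4 0.70, while Xdh and Pdzd4 had -0.37.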

How the data were processed

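The authors deposited raw UMI counts for each gene in each barcode. They were produced by Cell Ranger 7.0.0, per the file headers, and mm10 is the build in the submitters' processing notes. Here, a cell had to have 200 or more genes and no more than 10% of its UMIs from mitochondria, and Scrublet (scanpy 1.11.5) called 1.03% to 6.41% of cells as doublets, which were removed, against 7.26% to 12.9% expected, so doublets remain. Libraries share 282 barcodes with another library. Clustering (2000 variable genes without the 6 genes, 30 components, Leiden resolution 1, igraph 0.11.9, scikit-learn 1.9.0; myeloid cells again with 20 components) gave 47 clusters, of which 17 with 2814 cells stayed unnamed. A name needed 3 markers of a list and leading genes that did not go against it, a rule chosen once the data had been seen. Names rest on RNA, and another naming can move cells between classes.

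Counts were summed per library and class, with at least 20 cells in every library for a test. The genotypes were compared with edgeR 4.0.16 (quasi-likelihood test, TMM, filterByExpr, Benjamini-Hochberg adjustment over all genes of a class, threshold 0.05; limma 3.58.1, R 4.3.3), with DESeq2 1.42.0 as an alternative. Classes outside cDC were compared in 1 such fit with the library as a block. On simulated counts for cDC2-like cells (7242 genes), 5 of 50 genes changed 2-fold, 37 of 50 changed 4-fold and 49 of 50 changed 8-fold were recovered, with 10 false calls. In pDC-like cells (5058 genes) 1 of 50 genes changed 2-fold and 27 of 50 changed 4-fold were recovered. The simulation gave every gene the same dispersion and changed only genes above a minimum expected count. These rates therefore need not hold for the real spread or for genes with few UMIs. Intervals are exact (95%), made with scipy 1.17.1, and with the limit of 3 counts cover counting error only. The genes and lists were chosen with earlier results of these data known. Genes named besides the 6 are the 3 most like each, the 2 most abundant in all cDC-like cells of each list, the nearest tested neighbour on each side, Smc3, Siglech and cluster markers. Siglech was named because it was already known to change the same way in these data. Il6st, Socs2, Clec4a4, Gm2245 and the other pDC markers given for the Cd209a-led cluster were chosen after their values were seen.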

Additional observations from a re-analysis of the deposited data

Results flagged for a closer look

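Cells of unnamed clusters nearest to cDC2 entered no main comparison, only the alternative with unnamed clusters added. They carried Xdh at 155 and 122 CPM in the Smc3-cKO libraries (mean 139 CPM) and at 96.0 and 34.0 CPM in the Smc3-WT libraries (mean 65.0 CPM).

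Lifr lay on opposite sides in 2 classes. Both Smc3-cKO libraries were above both Smc3-WT libraries in nonclassical monocyte-like cells (log2 difference 0.77), and below them in pDC-like cells after TMM scaling (log2 difference -0.37). The difference between these classes was not tested.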

How the results depend on the processing

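The fitted cDC2 differences keep their sign under the alternatives that gave a value, but their size depends on how cDC2 cells are defined. With cells gated one by one on markers, the log2 differences were 1.30 for Gria3, 0.67 for Xdh, 0.15 for Lifr and 0.94 for Pdzd4. Within the Adam23-led cluster, an alternative chosen after seeing the data, they were 1.04 for Gria3 and 0.83 for Lifr. Within the Cd209a-led one they were 0.29 for Gria3, 2.03 for Xdh, 0.78 for Slc41a2, 0.11 for Lifr and 0.72 for Pdzd4. Slc41a2 and Pdzd4 had too few UMIs for a fit in the Adam23-led cluster (2, 6, 1 and 2, and 5, 9, 0 and 4), with mean levels lower in Smc3-cKO, and Slc41a2 could not be fitted in gated cells. Leiden resolution 2 gave 1.21 for Slc41a2, added unnamed clusters 1.95 for Xdh, and stricter cell filters 1.98 for Lifr. The cause of these shifts was not tested. Leaving out 1 library at a time gave 1.36 to 2.16 for Gria3, 2.15 to 2.99 for Xdh, 1.64 to 2.20 for Slc41a2, 1.12 to 1.67 for Lifr and 1.39 to 2.09 for Pdzd4 in cDC2-like cells. In cDC1-like cells it gave -0.22 to 1.18 for Xdh and -0.39 to 1.79 for Slc41a2, the sign turning without Smc3-cKO replicate 1 for both (-0.22 and -0.37) and without Smc3-WT replicate 2 for Slc41a2 (-0.39). The differences in positive share, in percentage points, were after thinning and with gated cells 15.5 and 9.10 for Gria3, 12.1 and 20.02 for Xdh, 4.76 and 5.94 for Slc41a2, 8.32 and 0.933 for Lifr, and 4.85 and 7.69 for Pdzd4.

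Outside cDC 1 pair was called with all genes of at least 1 count, Nrg1 in NK cell-like cells, whose UMIs come from 1 cell; 0 to 1 were called with a library left out. Small differences changed sign: Gria3 in pDC-like cells was 0.38 with gated cells, and Slc41a2 there was 0.0065 with at least 1 count, 0.0597 at resolution 2, 0.0489 with unnamed clusters added and -0.25 to 0.25 with a library left out. With a library left out Pdzd4 in pDC-like cells ranged from -0.12 to 0.31, and in classical monocyte-like cells Xdh from -0.10 to 0.33 and Nrg1 from -0.62 to 1.09. Called neighbours numbered 1 in cDC2-like and 2 in all cDC-like cells with at least 1 count, and 0 to 5, 0 to 1 and 0 to 6 in cDC2-like, cDC1-like and all cDC-like cells with a library left out. Called pairs of a pathway gene and a cDC class, with overlapping classes, numbered 7 with at least 1 count, 2 with the replicate block, 1 with DESeq2, 1 with doublets kept, 2 at resolution 2, 1 with unnamed clusters added and 0 to 11 with a library left out; outside cDC 0 to 2. Socs2, of the LIF list, was one of these in all cDC-like cells (log2 difference -3.16, adjusted p = 0.075 with edgeR and 0.00014 with DESeq2). Genes called in cDC2-like cells numbered 52, and 180 with the replicate block. They numbered 209 and 812 when the first or the second Smc3-WT library was left out, and 81 when the first Smc3-cKO library was. Leaving out a library leaves 1 in its group, which is then assumed to vary like the other group.

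Replicate numbers are shared between genotypes, but the labels do not say that they pair animals. With the number as a block the log2 differences in cDC2-like cells kept their direction, and the correlation of same-numbered deviations ranged from -0.108 to 0.602 over classes. No value exists for the pDC-like class with doublets kept or with stricter cell filters.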
